A study of Mus musculus with 4 samples.

Results

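Lalba-expressing progenitors were 895 cell barcodes of the mouse mammary gland, out of 10889 non-cycling luminal progenitors and 36884 barcodes in all. Each barcode was scored on 3 panels of 8 genes as the mean z-scored log2(1 + counts per 10000) of the panel. A luminal progenitor had a luminal progenitor score (Elf5, Kit, Aldh1a3, Csn3, Ltf, Wfdc18, Cd14, Trf) above 0.3 and at least 0.5 above its basal score (Krt5, Krt14, Krt17, Acta2, Myh11, Cnn1, Oxtr, Trp63) and its hormone-sensing score (Prlr, Esr1, Pgr, Areg, Cited1, Foxa1, Fxyd2, Ly6a). Barcodes with 4 or more unique molecular identifiers (UMIs, counted transcript molecules) of Mki67, Top2a, Birc5, Ube2c and Cdk1 together were left out as cycling. The members held at least 2 UMIs of Lalba, and the 9544 progenitors with 0 Lalba UMIs, called Lalba-0 below, were set against them. The 450 progenitors with exactly 1 Lalba UMI belong to neither group.

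Lalba encodes alpha-lactalbumin, the milk protein that joins a galactosyltransferase in the Golgi to form lactose synthase. In the virgin gland, luminal progenitors are the hormone receptor-low cells of the ductal lining that can give rise to alveolar cells. In pregnancy, prolactin acts through JAK2 and STAT5, with the transcription factor Elf5, to turn such cells into secretory alveoli that make caseins, whey proteins, lactose and milk fat.

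The 4 libraries came from FACS-sorted mammary cells of C57BL/B6 mice and were made with 10x 3′ v2 chemistry, which reads the 3′ ends of transcripts. There was 1 library per genotype (Zeb1 MSKO, control) and age (8 weeks, 9 weeks). The labels do not expand MSKO, do not name the deleted part of Zeb1 or the driver of any deletion, and do not say how many mice went into a library. Replicates are therefore libraries (n = 2 per genotype), and p-values rest on the spread between them, which may be partly technical. edgeR pools this spread over genes. The pooled part carried 24.1 degrees of freedom against 3 residual ones between Lalba states, and 307 against 2 in the interaction test below. SEs and p-values of single genes there rest mostly on pooled spread, and do not measure the spread of that gene alone. A difference between ages cannot be told apart from one between preparations.

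The libraries held 7627 to 9790 barcodes with a median of 6376 to 10529.5 UMIs each. The members numbered 47 and 312 in the Zeb1 MSKO libraries at 8 and 9 weeks, and 146 and 390 in the control libraries, so both 8-week profiles rest on few cells. Of all barcode sequences, 1372 occurred in more than 1 library, among them those of 44 members, but in no case was the same sequence a member in another library. Zeb1, which encodes a repressor of epithelial genes, gave 3 and 3 UMIs in the Zeb1 MSKO members at 8 and 9 weeks, and 1 and 1 UMIs in the control members. Over all barcodes it gave 557 and 86 UMIs in the Zeb1 MSKO libraries, and 397 and 44 in the control libraries. A 3′ count checks the genotype only if it lies in the deleted part, which the labels do not give, so the labels could not be checked in this way.

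Lalba itself (ENSMUSG00000022991, mm10 chromosome 15, 98480400 to 98482721, minus strand) reached 498 and 1195 CPM in the Zeb1 MSKO members at 8 and 9 weeks, and 853 and 1033 CPM in the control members. CPM values come from UMIs summed over the cells of a library and state, set to a common total with TMM scaling unless said otherwise. These levels follow from the rule and are a description. The median member held 4 Lalba UMIs in both 8-week libraries and 6 in both 9-week libraries, and the highest member held 25 and 177 in the Zeb1 MSKO libraries and 70 and 111 in the control libraries. At the threshold, the 191 members with exactly 2 Lalba UMIs lay at 172 to 216 CPM of Lalba without TMM scaling, and the 450 progenitors just outside it at 95.1 to 114 CPM.

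The rule finds a larger share of progenitors in the 9-week libraries. At 8 weeks the share with at least 2 Lalba UMIs was 2.89% in the Zeb1 MSKO library (exact 95% binomial interval 2.13 to 3.83%) and 4.08% in the control library (3.45 to 4.78%). At 9 weeks it was 10.1% in the Zeb1 MSKO library (9.04 to 11.2%) and 15.1% in the control library (13.7 to 16.5%). The share was lower in the Zeb1 MSKO library at both ages, by 1.18 and 5.01 percentage points, but the ages differed more than the genotypes. Over libraries it averaged 6.48 ± 5.08% in Zeb1 MSKO and 9.58 ± 7.78% in control (SD, n = 2 each), and the difference did not pass an exact two-sided permutation test (p = 0.667, where 0.33 is the smallest that 2 against 2 libraries allow).

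The order was the same at equal depth. With each barcode thinned to 2500 UMIs, a depth that every barcode exceeded, the share was 0.862% in Zeb1 MSKO and 2.15% in control at 8 weeks, and 5.26% in Zeb1 MSKO and 8.16% in control at 9 weeks. The unthinned progenitors held a median of 7678 and 7516 UMIs in Zeb1 MSKO and 8182 and 8107 in control. Free RNA can put Lalba UMIs into cells that do not make it. Basal cells, defined by the same panels, had at least 2 Lalba UMIs in 0% and 0.0411% of cells in Zeb1 MSKO and in 0.167% and 0.284% in control, at median depths of 5637 to 8065 UMIs. Intervals cover counting error only.

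**Figure D1:**
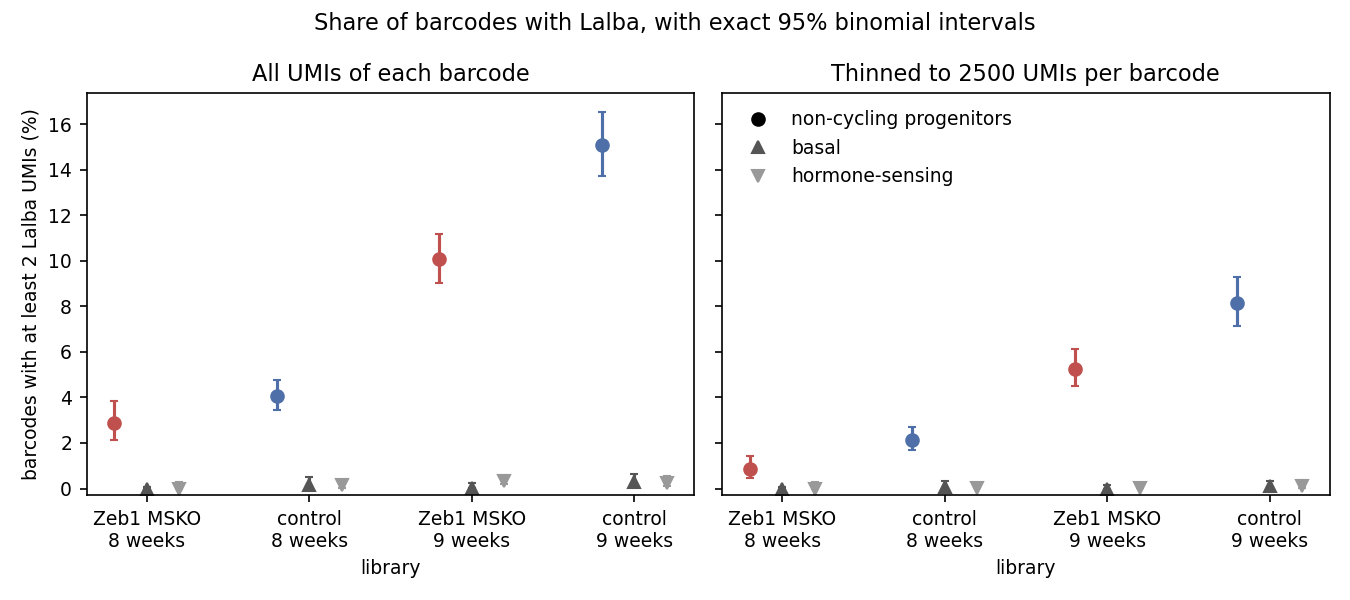
Share of barcodes with at least 2 Lalba UMIs (y axis, percent) in each library (x axis), for non-cycling progenitors, basal cells and hormone-sensing cells, with all UMIs (left) and after thinning to 2500 UMIs (right). Points are shares and bars are exact 95% binomial intervals. The 9-week libraries lie above the 8-week libraries, the Zeb1 MSKO library below the control library at each age, and the background in the other cell classes near 0.

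The members' profile differed from that of Lalba-0 progenitors of the same libraries well beyond Lalba. Counts were summed per library and Lalba state and compared with edgeR's quasi-likelihood test, with the library as a block. Of 11992 genes outside the rule, 294 rose and 172 fell (Benjamini-Hochberg adjusted p under 0.05), which is 2.45% and 1.43% of the genes tested (3.89% for the 466 together). Among them 52 rose and 37 fell at least 2-fold, and 250 of the 294 were higher, and 149 of the 172 lower, in 4 of 4 libraries, as were 8.96% and 13% of all genes tested. Thinned to 2500 UMIs per barcode, 113 genes were called, of which 110 were among the 466. In this setting both states were set anew from the thinned Lalba UMIs. It held 14 and 163 members in Zeb1 MSKO at 8 and 9 weeks and 77 and 211 in control. Its Lalba-0 state took in cells left without Lalba UMIs by thinning. Thinned fold changes and calls thus differ from the main ones in cells as well as depth. Thinned shares of cells with Cck or Csn1s1 keep the members chosen before thinning. With the 8-week control or the 9-week Zeb1 MSKO library left out, 285 and 287 were called. The members were also deeper than Lalba-0 progenitors in 3 libraries. Their median was 9947 and 8573 UMIs in Zeb1 MSKO and 7808.5 and 9951 in control, against 7640 and 7423 in Lalba-0 progenitors of Zeb1 MSKO and 8226 and 7826 in those of control.

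Cck and Btn1a1, the label's markers that the rule does not use, were both higher in members in 4 of 4 libraries. The members were chosen with earlier results of these data known, so this is no independent check of the label. Cck (mm10 chromosome 9, 121489824 to 121495694) encodes the peptide hormone cholecystokinin. It reached 165 and 593 CPM in members of the Zeb1 MSKO libraries at 8 and 9 weeks and 708 and 397 CPM in those of the control libraries, against 31.7 and 119 CPM in Lalba-0 progenitors of Zeb1 MSKO and 131 and 129 CPM in those of control. Each library's members lay at least 3-fold above its own Lalba-0 cells, and the lowest member value, in Zeb1 MSKO at 8 weeks, lay above the highest Lalba-0 value. Averaged over libraries Cck was at 466 ± 238 CPM in members and 102 ± 47.4 CPM in Lalba-0 progenitors (SD, n = 4 each), a log2 fold change of 2.16 ± 0.10 (SE; edgeR adjusted p = 3.2e-15). After thinning, 25.5% and 49.7% of Zeb1 MSKO members and 55.5% and 45.9% of control members held a Cck UMI, against 5.92% and 17.5% of Lalba-0 progenitors in Zeb1 MSKO, 19.2% and 18.4% in control and 0.148% to 0.575% of basal cells.

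Btn1a1 (chromosome 13, 23456992 to 23465901) encodes butyrophilin, a membrane protein of the milk fat globule. It stood at 196 and 310 CPM in Zeb1 MSKO members and 219 and 250 CPM in control members, against 108 and 97.5 CPM in Lalba-0 progenitors of Zeb1 MSKO and 56.0 and 147 CPM in those of control. The 2 states did not overlap over the 4 libraries. The log2 fold change was 1.33 ± 0.12 (SE; edgeR adjusted p = 1.7e-08). Unthinned and pooled over libraries, 514 of the 895 members held UMIs of both Cck and Btn1a1 (57.4%) and 95 of neither. Of the 9544 Lalba-0 progenitors, 1654 (17.3%) held both and 4202 neither. By library, 38.3% and 58.3% of Zeb1 MSKO members and 54.8% and 60.0% of control members held both. The shares of Lalba-0 progenitors were 8.95% and 18.7% in Zeb1 MSKO and 15.6% and 24.7% in control. Both markers were thus higher in members, while most members held no UMI of the caseins Csn1s1, Csn2 or Csn1s2a, as described below.

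The caseins are the bulk proteins of milk, and their genes lie together on chromosome 5: Csn1s1 at 87666208 to 87682578, Csn2 at 87692624 to 87699630 and Csn1s2a at 87774567 to 87788797 (mm10, GENCODE vM21). All 3 rose in members, while Csn1s2b, another casein, did not pass. The promoter sequence of Csn1s1 and the site in that of Csn2 are shown because STAT5, the factor downstream of prolactin, binds the letters TTCNNNGAA, and that of Lalba because it chose the cells. The letters read the same on both strands, and N is any base. They occur in 8.30% of the 32851 promoter windows of 300 bases (250 before to 50 after a gene's start; RefSeq sequences, build GRCm38.p6). Among the windows of genes tested the share was 6.89% of 11574, and it was 8.51% of 282 for genes that rose in members and 6.98% of 172 for genes that fell. Below, capitals mark a match, and the sequences read 5′ to 3′ on the strand of the gene.
Csn1s1, chr5:87665958-87666157, plus strand, bases -250 to -51 from the start: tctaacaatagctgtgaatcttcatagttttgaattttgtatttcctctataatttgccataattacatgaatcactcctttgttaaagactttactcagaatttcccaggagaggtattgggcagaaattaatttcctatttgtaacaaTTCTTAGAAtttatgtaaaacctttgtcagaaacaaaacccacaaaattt
Csn2, chr5:87699500-87699528, minus strand, bases -103 to -75: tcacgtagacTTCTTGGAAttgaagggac
Lalba, chr15:98482734-98482933, minus strand, bases -250 to -51: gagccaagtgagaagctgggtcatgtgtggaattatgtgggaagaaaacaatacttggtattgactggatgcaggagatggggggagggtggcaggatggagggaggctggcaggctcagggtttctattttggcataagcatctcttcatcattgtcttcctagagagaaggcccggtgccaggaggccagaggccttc
The match begins at base -100 in Csn1s1 and at base -93 in Csn2, and Csn1s2a has one at base 20 after its start. Bases are counted from RefSeq's starts. That of Csn2 lies inside the GENCODE span given above, and so does the stretch shown, and those of Lalba and Csn1s2a also differ from the ends of the GENCODE spans. The Lalba and Cck windows hold none, which says only that these letters are not there.

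Csn1s1, the alpha-S1 casein, was at 383 and 395 CPM in Zeb1 MSKO members and at 3.16 and 126 CPM in control members, against 23.1 and 55.7 CPM in Lalba-0 progenitors of Zeb1 MSKO and 1.68 and 28.0 CPM in those of control. Members were higher in each library, and the 8-week control library had next to none in either state. The log2 fold change was 2.86 ± 0.18 (SE; edgeR adjusted p = 3.7e-12). The beta-casein gene Csn2 was at 246 and 171 CPM in Zeb1 MSKO members and at 0 and 27.7 CPM in control members, against 6.61 and 8.03 CPM in Lalba-0 progenitors of Zeb1 MSKO and 0 and 0.543 CPM in those of control. Csn2 rose by a log2 fold change of 4.80 ± 0.15 (SE; edgeR adjusted p = 2.3e-18), in the 3 libraries that held it. Csn1s2a stood at 25.9 and 815 CPM in Zeb1 MSKO members and 4.75 and 35.9 CPM in control members, against 3.68 and 18.6 CPM in Lalba-0 progenitors of Zeb1 MSKO and 1.78 and 7.44 CPM in those of control. Its log2 fold change was 4.09 ± 0.36 (SE; edgeR adjusted p = 7.9e-09), and 2.28 without the 9-week Zeb1 MSKO library. Csn1s2b was at 0 and 7.37 CPM in Zeb1 MSKO members and 3.96 and 5.82 CPM in control members, against 3.81 and 4.45 CPM in Lalba-0 progenitors of Zeb1 MSKO and 3.79 and 6.30 CPM in those of control. Its states overlapped, and its log2 fold change of 0.14 ± 0.28 did not pass (SE; edgeR adjusted p = 0.90).

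Few cells carried most of the UMIs of the 3 caseins that rose. Of the 895 members, 236 (26.4%) held a UMI of at least 1 of them, 62 of at least 2 and 17 of all 3, against 770 (8.07%), 71 and 6 of the 9544 Lalba-0 progenitors. The share of members with a casein UMI was 40.4% and 36.5% in Zeb1 MSKO at 8 and 9 weeks and 4.79% and 24.6% in control, against 8.31% and 13.8% of Lalba-0 progenitors in Zeb1 MSKO and 2.0% and 10.5% in control. Casein-positive members were deeper than casein-negative ones in 3 of 4 libraries, for example 9942.5 against 7816 UMIs in Zeb1 MSKO at 9 weeks. Thinned to 2500 UMIs, Csn1s1 was found in 19.1% and 21.5% of Zeb1 MSKO members and 0.685% and 8.97% of control members, against 2.58% and 5.42% of Lalba-0 progenitors in Zeb1 MSKO and 0.299% and 3.26% in control, and in 0% to 0.205% of basal cells. The 10 members with the most casein held 3490 of the 5483 casein UMIs of all members (63.7%). In the 8-week Zeb1 MSKO library 119 of the 133 Csn2 UMIs lay in 1 cell, and at 9 weeks 828 of the 2542 Csn1s2a UMIs did. With each gene's highest cell left out, the Csn2 log2 fold change was 4.04, and the 3 were still called.

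Over all genes tested outside the rule, 2.45% rose and 1.43% fell, which is the background for this list and those below. Of the 9 tested members of the list of caseins and whey proteins, 4 rose, 1 fell and 4 did not pass, with a median log2 fold change of 0.18 against -0.02 over all genes tested. Spp1, which encodes the secreted phosphoprotein osteopontin, was the fourth that rose (1.63 ± 0.28, SE; edgeR adjusted p = 0.00039). It lost its call with DESeq2 (adjusted p = 0.69) and without the 9-week Zeb1 MSKO library (0.15), where 1 cell held 92 of its 251 UMIs. Muc15, a mucin of the milk fat globule membrane, fell slightly (log2 fold change -0.28 ± 0.07, SE; adjusted p = 0.028). It lost its call with DESeq2 (adjusted p = 0.18), when thinned (0.46), and without the 8-week or the 9-week control library (0.19 and 0.29). Wap, the whey acidic protein typical of late pregnancy, was too sparse to test, with 0 and 8 UMIs in Zeb1 MSKO members and 0 and 3 in control members. Csn3, the kappa-casein, is in the progenitor panel and is given as a description: 4754 and 9374 CPM in Zeb1 MSKO members and 8133 and 7931 CPM in control members, against 2736 and 4355 CPM in Lalba-0 progenitors of Zeb1 MSKO and 3867 and 5006 CPM in those of control. In the 8-week control library Csn3 lay within the range of the other libraries and Csn1s1 was nearly absent. As the rule favours cells with Csn3, this is no test of a difference between the 2 genes.

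Of 17 tested genes of milk fat synthesis and secretion, 4 rose, none fell, and 13 did not pass, with a median log2 fold change of 0.00. Beside Btn1a1, the ones that rose were Xdh, Scd1 and Plin2. Xdh, whose product xanthine dehydrogenase binds butyrophilin at the fat globule, was at 104 and 42.3 CPM in Zeb1 MSKO members and 53.0 and 87.1 CPM in control members, against 40.4 and 23.5 CPM in Lalba-0 progenitors of Zeb1 MSKO and 26.6 and 51.2 CPM in those of control. Members were higher in each library (log2 fold change 0.92 ± 0.10, SE; edgeR adjusted p = 3.2e-07). Scd1, a fatty acid desaturase, rose by 0.68 ± 0.10 on the log2 scale (SE; edgeR adjusted p = 7.3e-05). Plin2, the lipid droplet coat protein, rose by 0.45 ± 0.11 (SE; edgeR adjusted p = 0.012) and lost its call with DESeq2 (adjusted p = 0.20) and without the 8-week Zeb1 MSKO library (0.086). In the 8-week control library Plin2 was lower in members (98.1 CPM) than in Lalba-0 progenitors (105 CPM). The synthesis enzymes Fasn, Acaca and Acly had log2 fold changes of -0.09, 0.00 and -0.10 and did not pass.

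Sugar and ion transport moved in a few genes. Among 9 genes of lactose synthesis and sugar transport, the glucose transporter gene Slc2a1 rose (log2 fold change 0.55 ± 0.09, SE; edgeR adjusted p = 0.00012) and the other 8 did not pass, with a list median of 0.09. B4galt1, the galactosyltransferase that alpha-lactalbumin binds, was among those 8, at a log2 fold change of 0.21. Among 6 tested genes of ion and mineral transport, the aquaporin genes Aqp5 (0.51 ± 0.08, SE; edgeR adjusted p = 0.00016) and Aqp3 (0.67 ± 0.15, SE; edgeR adjusted p = 0.0081) rose and 4 did not pass, with a median of 0.37. Aqp3 lost its call with DESeq2 (adjusted p = 0.25) and without the 8-week control library (0.58).

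Signalling genes of the prolactin pathway differed little. Of 13 tested, only the feedback inhibitor gene Socs3 rose (log2 fold change 0.36 ± 0.09, SE; edgeR adjusted p = 0.014), but not without the 8-week control (adjusted p = 0.22) or the 9-week Zeb1 MSKO library (0.067), and thinned to 2500 UMIs it turned to -0.042. Stat5a, Stat5b and Jak2 were at 0.01, 0.03 and 0.04 and did not pass, and the list median was 0.09. Of 15 luminal and alveolar transcription factors, 3 rose, 1 fell and 11 did not pass. Hey1, a target of Notch signalling, was at 144 and 221 CPM in Zeb1 MSKO members and 70.4 and 171 CPM in control members, against 47.7 and 131 CPM in Lalba-0 progenitors of Zeb1 MSKO and 50.9 and 138 CPM in those of control. Members were higher in each library (0.67 ± 0.11, SE; edgeR adjusted p = 0.00029). Runx1 (0.44 ± 0.08, SE; adjusted p = 0.00073) and Cebpb (0.27 ± 0.07, SE; adjusted p = 0.02) rose as well, and Ehf fell (-0.31 ± 0.09, SE; adjusted p = 0.038). The calls of Cebpb and Ehf were lost with DESeq2 (adjusted p = 0.076 and 0.31), when thinned (0.98 and 0.66) and without the 8-week control library (0.25 and 0.29). That of Cebpb was also lost without the 9-week Zeb1 MSKO library (0.11). That of Ehf was also lost without the 9-week control (0.37) or the 9-week Zeb1 MSKO library (0.052). Cebpb gave 1115 and 87 UMIs in Zeb1 MSKO members at 8 and 9 weeks, and 3266 and 172 in control members. Elf5, in the progenitor panel and so a description, was at 307 and 289 CPM in Zeb1 MSKO members and 221 and 307 CPM in control members, against 226 and 280 CPM in Lalba-0 progenitors of Zeb1 MSKO and 222 and 300 CPM in those of control.

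**Figure D2:**
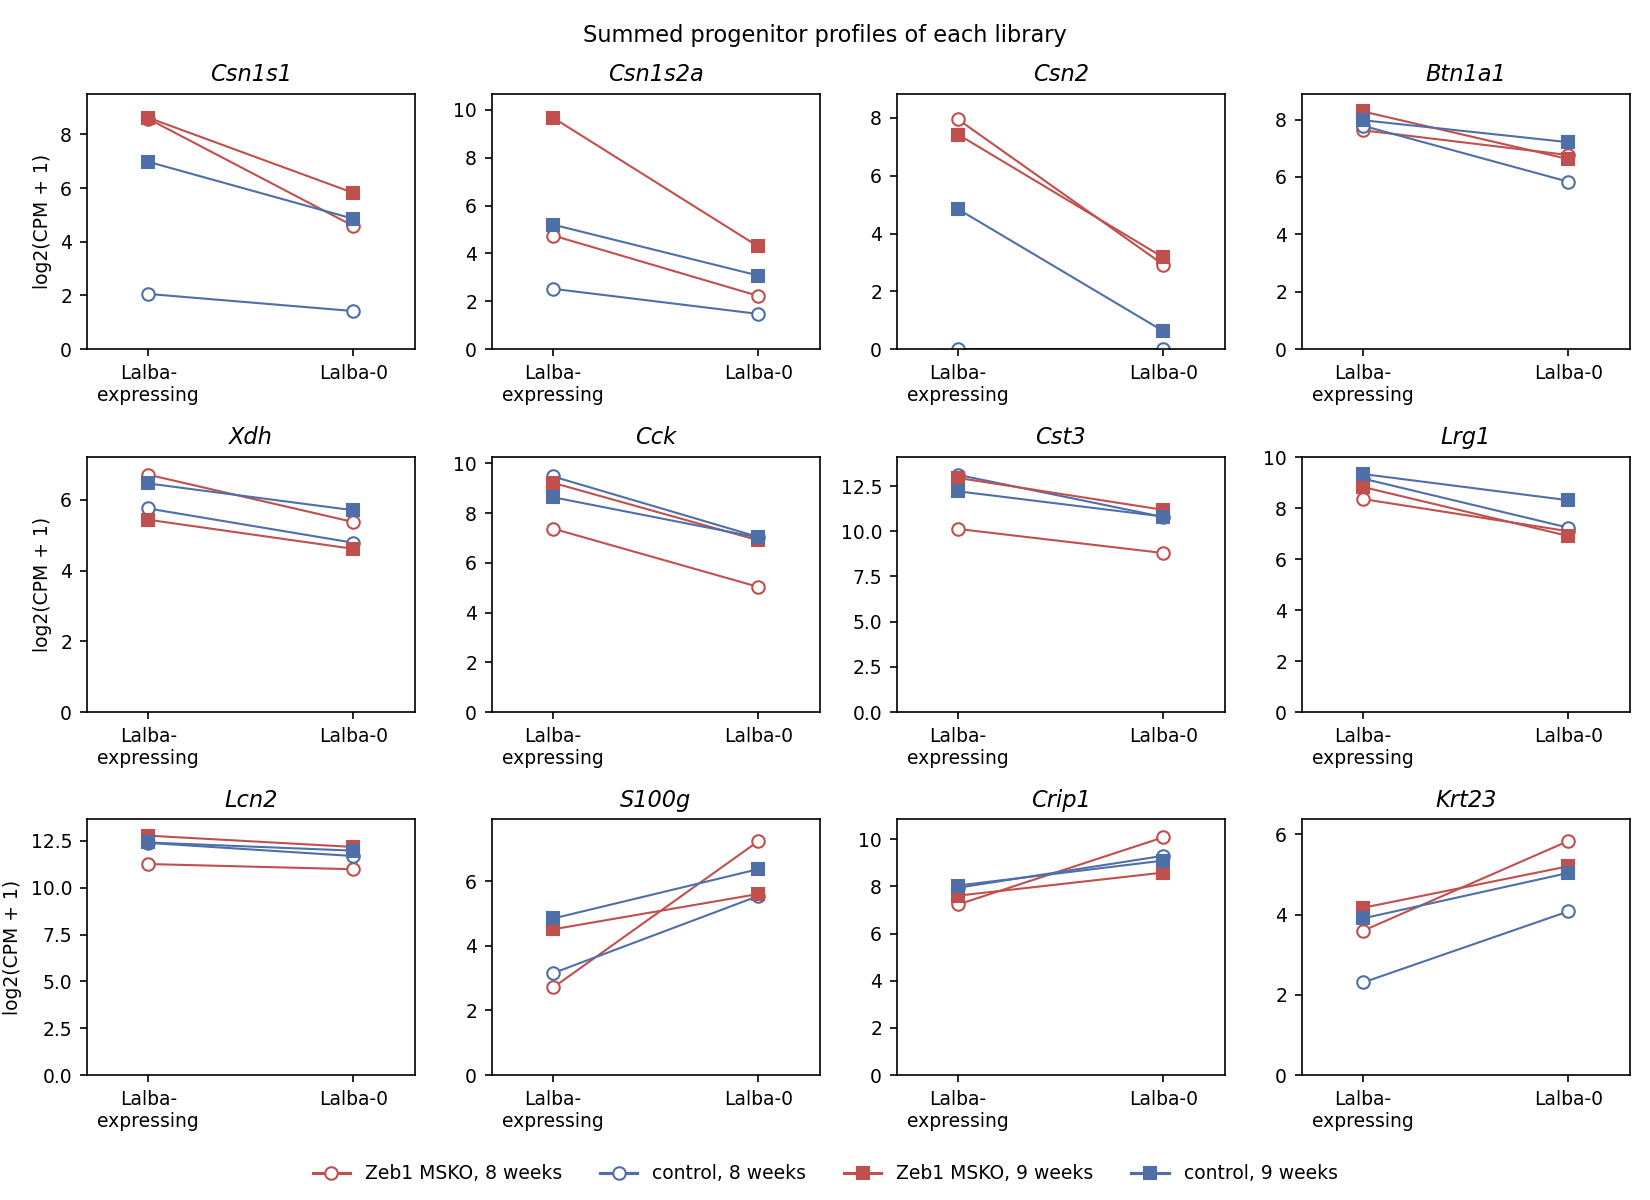
Levels of 12 genes in summed profiles, as log2(CPM + 1) on the y axis, in Lalba-expressing (left) and Lalba-0 progenitors (right) of each library. Lines join the 2 states of a library, red for Zeb1 MSKO and blue for control, open circles for 8 weeks and filled squares for 9 weeks. All lines fall to the right for Cck, Btn1a1, Xdh, Cst3, Lrg1 and Lcn2 and rise to the right for S100g, Crip1 and Krt23, while the 3 caseins shown have their lowest levels in the 8-week control library.

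By the naming rule (called, same direction in 4 of 4 libraries, at least 10 CPM in the higher state), 226 genes that rose and 126 that fell qualified. Beside Csn1s2a, Csn1s1, Cck and Btn1a1, the 12 with the largest fold change held Aqp1, Pkib, Cst3, Cdhr1, Lrg1, Col9a1, Folr1 and Lipa. The most abundant was Cst3, which encodes the secreted protease inhibitor cystatin C. Its level was 1116 and 7901 CPM in Zeb1 MSKO members and 8876 and 4728 CPM in control members, against 443 and 2325 CPM in Lalba-0 progenitors of Zeb1 MSKO and 1768 and 1798 CPM in those of control. The Zeb1 MSKO library at 8 weeks was low in both states, and members were higher in each library (log2 fold change 1.71 ± 0.09, SE; edgeR adjusted p = 1.3e-13). Basal cells held 417 to 505 CPM of Cst3 without TMM scaling.

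Lrg1, a secreted leucine-rich glycoprotein, was at 328 and 455 CPM in Zeb1 MSKO members and 572 and 647 CPM in control members, against 136 and 119 CPM in Lalba-0 progenitors of Zeb1 MSKO and 150 and 317 CPM in those of control. The states did not overlap (log2 fold change 1.55 ± 0.10, SE; edgeR adjusted p = 2.4e-11). Folr1, a folate receptor, stood at 81.4 and 210 CPM in Zeb1 MSKO members and 194 and 149 CPM in control members, against 31.4 and 68.8 CPM in Lalba-0 progenitors of Zeb1 MSKO and 58.6 and 75.4 CPM in those of control, again without overlap (1.42 ± 0.10, SE; adjusted p = 4.7e-11). Lipa, the lysosomal acid lipase, was at 170 and 138 CPM in Zeb1 MSKO members and 99.7 and 104 CPM in control members, against 39.8 and 48.9 CPM in Lalba-0 progenitors of Zeb1 MSKO and 44.4 and 65.6 CPM in those of control (1.26 ± 0.13, SE; adjusted p = 7.3e-08). The water channel gene Aqp1 was at 18.5 and 6.73 CPM in Zeb1 MSKO members and 101 and 60.6 CPM in control members, against 4.22 and 1.47 CPM in Lalba-0 progenitors of Zeb1 MSKO and 9.19 and 27.0 CPM in those of control. Its fold change depended on the libraries: the log2 value was 2.09 ± 0.25 (SE; adjusted p = 1.3e-06), 1.35 without the 8-week control library and 2.99 without the 9-week control library. Pkib, Cdhr1 and Col9a1 rose by 1.85, 1.62 and 1.5 on the log2 scale (adjusted p = 6.4e-07, 4.6e-05 and 1.9e-06), the first 2 of them at 7.40 to 25.2 CPM in members. Thinning ended the call of Cdhr1 (adjusted p = 0.40).

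Among genes that fell, the 8 named by the rule were S100g, Crip1, Col3a1, Dclk1, Krt23, Lect1, Sostdc1 and Mcm5. S100g encodes the calcium-binding protein calbindin-D9k. It was at 5.55 and 21.8 CPM in Zeb1 MSKO members and 7.91 and 27.7 CPM in control members, against 149 and 47.6 CPM in Lalba-0 progenitors of Zeb1 MSKO and 45.5 and 81.7 CPM in those of control. The states did not overlap (log2 fold change -1.74 ± 0.18, SE; edgeR adjusted p = 9.9e-08). Thinned, the value was -4.29. Crip1, a small LIM-domain protein, stood at 150 and 195 CPM in Zeb1 MSKO members and 246 and 262 CPM in control members, against 1084 and 384 CPM in Lalba-0 progenitors of Zeb1 MSKO and 629 and 547 CPM in those of control (-1.42 ± 0.14, SE; adjusted p = 7.0e-08). The states of Crip1 did not overlap either.

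Dclk1, a doublecortin-like kinase, was at 25.9 and 40.1 CPM in Zeb1 MSKO members and 8.70 and 24.5 CPM in control members, against 112 and 87.6 CPM in Lalba-0 progenitors of Zeb1 MSKO and 40.3 and 52.4 CPM in those of control (-1.32 ± 0.13, SE; edgeR adjusted p = 3.4e-08). Its call held in all alternatives with the library block. Of 5 luminal keratins Krt23 (-1.30 ± 0.15, SE; adjusted p = 7.2e-07) and Krt7 (-0.33 ± 0.08, SE; adjusted p = 0.021) fell, Krt18 rose slightly (0.19 ± 0.05, SE; adjusted p = 0.01), and Krt8 and Krt19 did not pass. Krt23 lost its call when thinned (adjusted p = 0.16), and Krt18 when thinned (0.98) or without the 9-week Zeb1 MSKO library (0.073). Krt7 lost its call with DESeq2 (0.13), when thinned (0.58), and without the 8-week control (0.14) or the 8-week Zeb1 MSKO library (0.083). Lect1 and Sostdc1, both secreted proteins, fell by 1.25 and 1.20 on the log2 scale. Lect1 was at -0.40 and no longer called when thinned (adjusted p = 0.95), while Sostdc1 was at -1.84 and still called.

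Members of the progenitor panel did not move together. Trf, the iron carrier transferrin, was at 3513 and 4444 CPM in Zeb1 MSKO members and 3011 and 4070 CPM in control members, against 626 and 1673 CPM in Lalba-0 progenitors of Zeb1 MSKO and 1050 and 2351 CPM in those of control. Wfdc18 was at 4556 and 8347 CPM in Zeb1 MSKO members and 5982 and 4168 CPM in control members, against 10055 and 9328 CPM in Lalba-0 progenitors of Zeb1 MSKO and 7319 and 5329 CPM in those of control. So Trf was above and Wfdc18 below the Lalba-0 level in 4 of 4 libraries. Ltf, the iron-binding lactoferrin, was at 435 and 2097 CPM in Zeb1 MSKO members and 3281 and 1148 CPM in control members, against 1972 and 1758 CPM in Lalba-0 progenitors of Zeb1 MSKO and 2999 and 1560 CPM in those of control. Its direction differed between libraries. As the panel helped to choose the cells, these values carry no test.

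Of 10 tested genes of iron binding and host defence, 3 rose, 1 fell and 6 did not pass, with a median log2 fold change of 0.33. Lcn2, the siderophore-binding lipocalin, was at 2466 and 7051 CPM in Zeb1 MSKO members and 5392 and 5476 CPM in control members, against 2035 and 4643 CPM in Lalba-0 progenitors of Zeb1 MSKO and 3318 and 4047 CPM in those of control. It was higher in each library by a modest step (0.51 ± 0.05, SE; edgeR adjusted p = 1.4e-07). Lbp, which binds bacterial lipopolysaccharide, rose by 1.15 ± 0.14 (SE; adjusted p = 1.9e-06). The acute-phase gene Saa1, whose reads can be split with its near copy Saa2, rose (4.64 ± 0.53, SE; adjusted p = 9.9e-07), but 33 of its 36 UMIs in Zeb1 MSKO members at 9 weeks came from 1 cell, and it was at 0 in the control members at 8 weeks. Lyz2, which fell, is a myeloid gene and is in the leukocyte list too. It gave 0 and 2 UMIs in Zeb1 MSKO members and 3 and 6 in control members, and its call was lost with DESeq2 (adjusted p = 0.076) and without the 8-week control library (0.23).

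All 16 tested genes of endoplasmic reticulum folding and export had positive log2 fold changes, with a median of 0.25. So had 5586 of all 11992 genes tested, 12 of the 13 prolactin pathway genes and 12 of the 15 transcription factors. Of the 16, 11 did not pass and 5 rose. These were the chaperone Hspa5 (0.46 ± 0.06, SE; edgeR adjusted p = 9.4e-06), the secretory transcription factor Xbp1 (0.46 ± 0.08, SE), Sdf2l1 (0.62 ± 0.13, SE), Creld2 (0.46 ± 0.12, SE) and Manf (0.40 ± 0.08, SE). Sdf2l1 and Creld2 lost their calls without the 9-week Zeb1 MSKO library (adjusted p = 0.46 and 0.51), and Creld2 and Manf without the 9-week control library (0.094 and 0.052). Xbp1 and Creld2 lost theirs when thinned (0.053 and 0.93). DESeq2 did not call Sdf2l1 or Creld2 (adjusted p = 0.85 and 0.39). Of 11 immediate early and dissociation genes, 6 rose (Egr1, Ier2, Fos, Jun, Fosb and Junb, log2 fold changes 0.24 to 0.42) and none fell. None of the 6 was still called when barcodes were thinned to 2500 UMIs (adjusted p from 0.65 to 0.98), and Fosb and Junb also lost their calls without the 9-week Zeb1 MSKO library (0.071 and 0.13). Among 8 progenitor surface markers Itgb3, integrin beta 3, rose (1.24 ± 0.24, SE; adjusted p = 0.0016) at 3.16 to 12.6 CPM in members. The call was lost when thinned (adjusted p = 0.37) and without the 9-week control library (0.071).

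Several proliferation genes outside the rule fell. Of 13 tested, none rose and 5 fell (Mcm5, Mcm3, Mcm6, Stmn1 and Tubb5), with a median log2 fold change of -0.72. Over all genes tested, 1.43% fell. Stmn1, a microtubule regulator, was at 85.2 and 46.5 CPM in Zeb1 MSKO members and 79.1 and 41.9 CPM in control members, against 98.7 and 85.9 CPM in Lalba-0 progenitors of Zeb1 MSKO and 187 and 56.3 CPM in those of control (-0.74 ± 0.11, SE; edgeR adjusted p = 6.0e-05). The other 4 lost their calls with DESeq2 (adjusted p from 0.071 to 0.29), when thinned (from 0.075 to 0.96) and without the 8-week control library (from 0.051 to 0.22). Mcm5, Mcm3 and Tubb5 also lost theirs without the 9-week Zeb1 MSKO library (0.18, 0.22 and 0.15). Both states exclude cycling cells by the rule, which limits this comparison to cells with few mitotic UMIs.

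The lists of claudins and tight junctions (9 tested, median -0.03) and of interferon response (10 tested, median -0.17) held no called gene. Of 11 epithelial genes known to be repressed by Zeb1, Ovol1, a zinc-finger factor of epithelial identity, fell (-0.72 ± 0.15, SE; edgeR adjusted p = 0.0026). Its call was lost when thinned (adjusted p = 0.92) and without the 9-week control library (0.12).

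**Figure D3:**
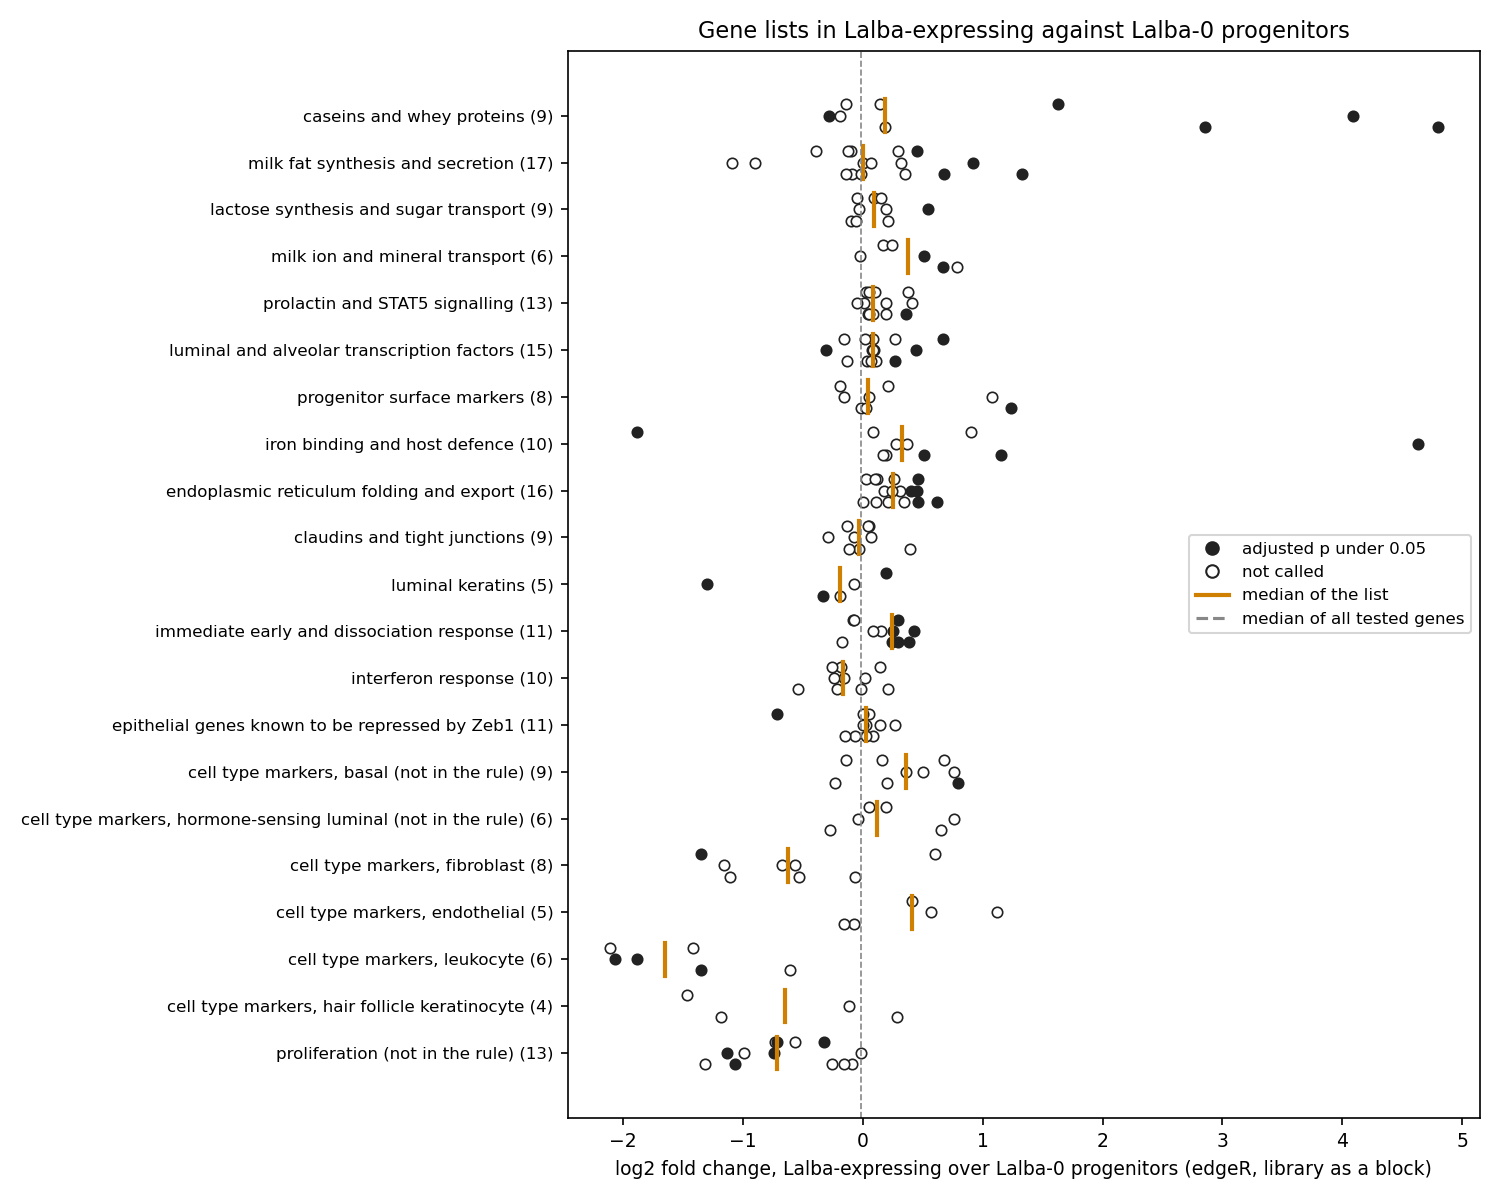
Log2 fold change of each tested gene (points; x axis), Lalba-expressing over Lalba-0 progenitors, by gene list (rows, with the number tested). Filled points passed an adjusted p of 0.05, orange bars are list medians and the dashed line is the median of all tested genes. The list of caseins and whey proteins reaches furthest to the right, and the proliferation and leukocyte lists lie to the left of 0.

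Other cell types were followed through their markers. Summed over 9 basal markers outside the rule, the unscaled level was 2014 to 2702 CPM in members and 1282 to 2035 CPM in Lalba-0 progenitors, and it was higher in members in each library. Most of the members' sum was Igfbp5, whose secreted product binds insulin-like growth factors, the one basal marker of the 9 tested that passed. It was at 1285 and 2350 CPM in Zeb1 MSKO members and 1529 and 2223 CPM in control members, against 747 and 1339 CPM in Lalba-0 progenitors of Zeb1 MSKO and 747 and 1512 CPM in those of control (log2 fold change 0.79 ± 0.06, SE; edgeR adjusted p = 4.5e-10). Basal cells themselves held 882 to 1776 CPM of Igfbp5 without TMM scaling. The basal panel genes Krt14 and Krt5 lay at 48.5 to 299.9 CPM and 7.22 to 16.7 CPM in members, against 43.3 to 228 CPM and 5.47 to 18.7 CPM in Lalba-0 progenitors.

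The 9 leukocyte markers summed to 12.5 to 64.2 CPM in members and 18.5 to 176 CPM in Lalba-0 progenitors, with Cd3e at 0 in all members. Of the 6 tested, S100a9, Lyz2 and S100a8 fell, but Lyz2 lost its call as given above, S100a8 turned to 0.77 without the 8-week control library and S100a9 was at -0.074 with DESeq2. The 8 fibroblast markers summed to 3.84 to 137 CPM in members and 4.16 to 151 CPM in Lalba-0 progenitors. Of these, Col3a1 fell and lost its call with DESeq2 (adjusted p = 0.10), when thinned (0.85) and without the 8-week control library (0.39). The 6 endothelial markers summed to 2.94 to 93.4 CPM in members and 5.85 to 57.4 CPM in Lalba-0 progenitors. The 8 hormone-sensing markers, with Tnfsf11 at 0 in members, summed to 93.4 to 388 CPM in members and 128 to 319 CPM in Lalba-0 progenitors. The 6 hair follicle markers, with Krt27 and Krt73 at 0 in members, summed to 1.49 to 21.5 CPM in members and 1.13 to 43.4 CPM in Lalba-0 progenitors. The part of such cells in the results was not tested beyond removing called doublets together with barcodes outside the limits on gene number and mitochondrial share, after which 502 genes were called, 446 of them among the 466. Doublets were called in 4 and 9 Zeb1 MSKO members and 4 and 6 control members. The called share was higher in members than in Lalba-0 progenitors in each library (1.54% to 8.51% against 0.84% to 2.898%). Of simulated doublets, 45.7% to 64.2% per library were recovered, so doublets can remain after the removal. Their part in the called genes was not tested.

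The number of Lalba UMIs in a cell went with the level of several other genes. Members were split into 2 to 4, 5 to 19 and 20 or more Lalba UMIs, without a test and without TMM scaling. The order was looked at only in genes picked from the Lalba contrast in these same cells, the gene lists and the rule. No share over all genes was counted. Btn1a1, Lrg1, Lipa and the rule gene Trf increased over these 3 steps in 4 of 4 libraries, and Cck, Cst3, Col9a1, Csn1s1 and Lcn2 in 3. Among the others, Csn3 and Xdh increased in 2 libraries, Elf5 and Aqp1 in 1, and Kit and Plin2 in 0. In Zeb1 MSKO at 9 weeks (133, 133 and 46 cells) Cck was at 349, 609 and 1102 CPM. In control at 9 weeks (142, 180 and 68 cells) it was at 370, 358 and 476 CPM. In the same order Csn1s1 was at 192, 372 and 930 CPM in Zeb1 MSKO, and 56.6, 144 and 197 CPM in control. Wfdc18 and Aldh1a3 decreased over the steps in 3 libraries. At 8 weeks the highest bin held 2 cells in Zeb1 MSKO and 10 in control, so the order there rests on few cells. Median depth differed little between the bins at 9 weeks (8653, 8140 and 7880 UMIs in Zeb1 MSKO, 9915.5, 9860.5 and 10152 in control).

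Next to the threshold, progenitors with exactly 1 Lalba UMI held 55.6 and 252 CPM of Cck in Zeb1 MSKO and 307 and 252 CPM in control, and those with exactly 2 held 163 and 358 CPM in Zeb1 MSKO and 657 and 302 CPM in control. Other genes did not all lie between the states there. At exactly 2 Lalba UMIs, Csn2 was at 0 CPM in both 8-week libraries, and at 8 weeks Aqp1 was at 0 CPM in Zeb1 MSKO and 137 CPM in control. With members defined by at least 5 Lalba UMIs, 410 genes were called, 322 of them among the 466.

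**Figure D4:**
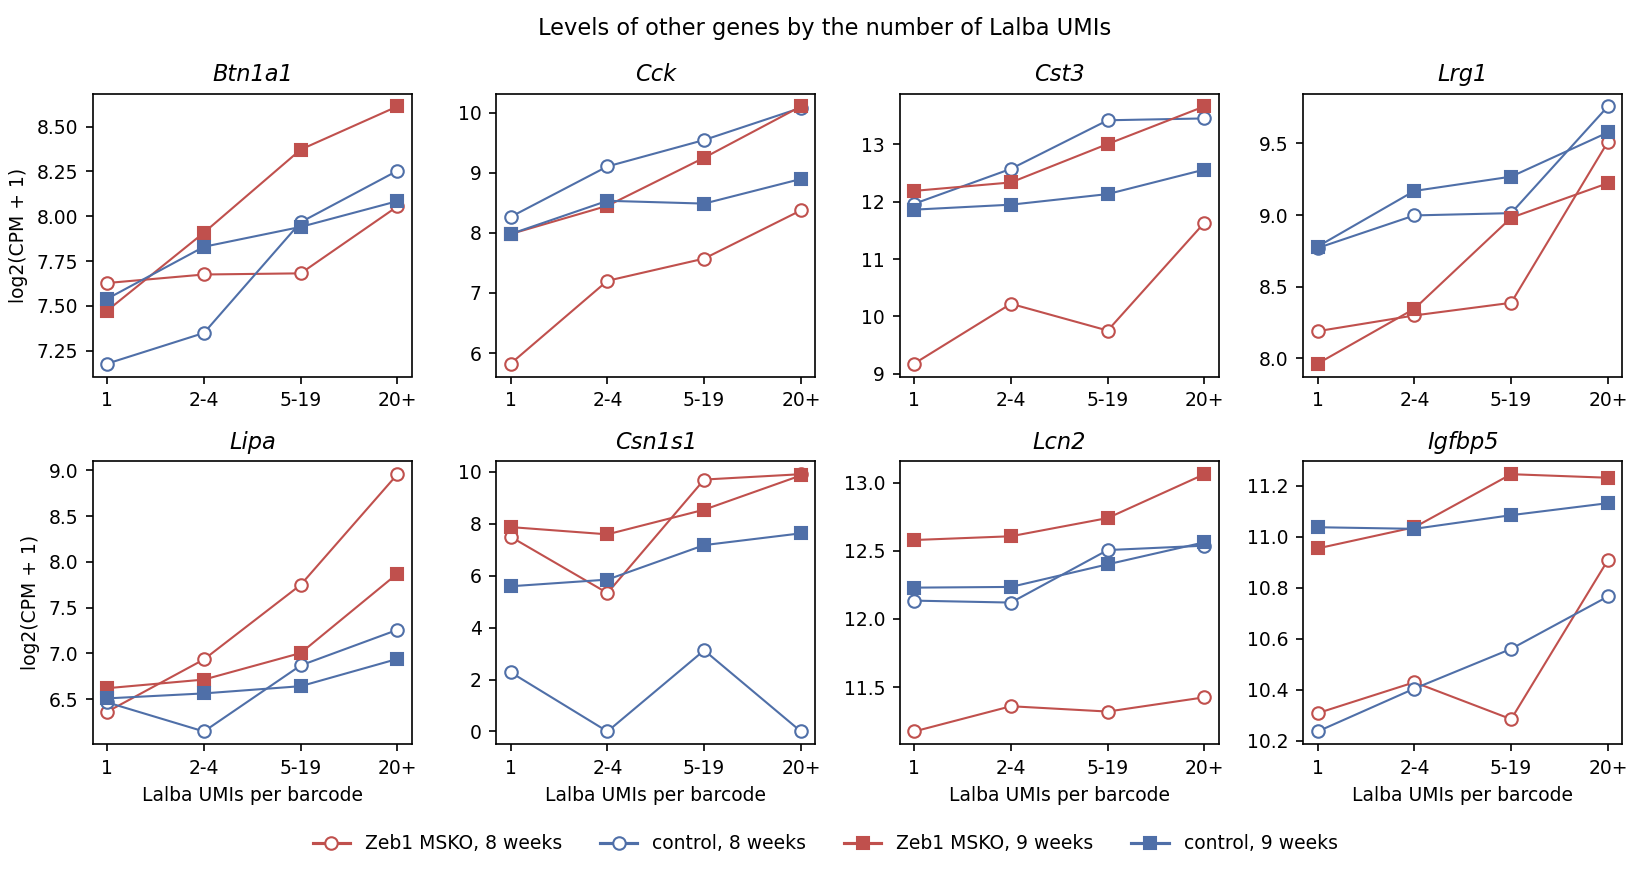
Levels of 8 genes, as log2(CPM + 1) without TMM scaling on the y axis, in progenitors with 1, 2 to 4, 5 to 19 and 20 or more Lalba UMIs (x axis). Lines are libraries, red for Zeb1 MSKO and blue for control, open circles for 8 weeks and filled squares for 9 weeks. Btn1a1, Lrg1 and Lipa increase from 2 to 4 upward in every library, and the last point of the 8-week libraries rests on 2 (Zeb1 MSKO) and 10 (control) cells.

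Between genotypes, no gene passed in the members. The 2 Zeb1 MSKO and 2 control profiles were compared without a block, and 0 of 9105 genes outside the rule were called (0%). At an unadjusted edgeR p under 0.05 were 183 of the 9105, a smaller share than the 0.05 that no difference would give. DESeq2 called 2 genes (Spp1 higher, Aqp1 lower). The libraries of a genotype differed much between ages (biological coefficient of variation 0.293, with 2 residual degrees of freedom). With age as a block, which the labels give, 30 genes were called, 9 higher and 21 lower, on 1 residual degree of freedom. With the 9-week control library left out 29 were called, and with the 8-week Zeb1 MSKO library left out 1.

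Csn1s1, Csn2 and Csn1s2a had higher values in Zeb1 MSKO members at both ages, as the levels given above show. Their log2 fold changes were 2.57, 3.73 and 4.27 (edgeR adjusted p = 1.0 each), and with age as a block 3.26 (adjusted p = 0.00082), 3.86 (3.5e-05) and 4.12 (1.3e-07). Csn1s2b was lower in Zeb1 MSKO at 8 weeks and higher at 9 weeks (log2 fold change 0.06, edgeR adjusted p = 1.0). The level of Lalba in members was lower in Zeb1 MSKO at 8 weeks and higher at 9 weeks, but it follows from the rule and is a description. The share of members was lower in Zeb1 MSKO at both ages. The casein list had a median of 1.66 over 8 tested genes, none called, and that of milk fat 0.29 over 14 tested genes, none called, against 0.00 over all 9105. Btn1a1 and Xdh were at 0.14 and 0.01.

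Of the other genes with higher values in Zeb1 MSKO, Spp1 was at 16.7 and 80.5 CPM in Zeb1 MSKO members at 8 and 9 weeks, and 0.791 and 1.86 CPM in control members (log2 fold change 5.05, edgeR adjusted p = 1.0; 5.26 with age as a block, adjusted p = 5.0e-08). All 9 of its UMIs in Zeb1 MSKO at 8 weeks came from 1 cell. Ubd, a ubiquitin-like modifier, was at 25.9 and 60.9 CPM in Zeb1 MSKO and 8.70 and 11.2 CPM in control. Rspo1, a secreted amplifier of Wnt signalling, was at 57.4 and 19.6 CPM in Zeb1 MSKO and 3.96 and 6.76 CPM in control. C3, a complement component, was at 120 and 214 CPM in Zeb1 MSKO and 70.4 and 72.0 CPM in control. Igfals, Angptl4 and Slpi complete the 8 named by lowest unadjusted p, with log2 fold changes of 1.48, 1.48 and 1.59. None of them passed without a block, and with age as a block Ubd (edgeR adjusted p = 0.00088), Rspo1 (0.0046) and Angptl4 (0.011) passed beside Spp1. The genotypes did not overlap for these genes, but they were chosen for 1 direction at both ages and low p, which favours that order. The share of all tested genes without overlap was not counted, so the order is no result about these genes.

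Of the genes with lower values in Zeb1 MSKO, Aqp1 had the lowest unadjusted p (0.00085; log2 fold change -2.94, edgeR adjusted p = 1.0), at the levels given above. Srxn1, which encodes the antioxidant enzyme sulfiredoxin, was at 27.8 and 27.9 CPM in Zeb1 MSKO and 126 and 76.0 CPM in control (-1.82). Gstm1, a glutathione transferase of a family of close copies, was at 18.5 and 29.5 CPM in Zeb1 MSKO and 72.0 and 68.7 CPM in control (-1.45). Cpe, a carboxypeptidase that processes prohormones, was at 13.0 and 8.98 CPM in Zeb1 MSKO and 36.4 and 29.1 CPM in control (-1.66). Klk10, Igfbp2, Ank and Abcb9 were at 0 to 3.21 CPM in Zeb1 MSKO and 7.22 to 21.4 CPM in control. With age as a block, 7 of these 8 passed: Aqp1 (edgeR adjusted p = 1.7e-05), Srxn1 (0.0066), Klk10 (0.011), Ank (0.028), Gstm1 (0.040), Cpe (0.043) and Igfbp2 (0.048). Igfbp2 rested on 1 control cell at each age, which held 23 of 26 UMIs at 8 weeks and 48 of 54 at 9 weeks. Values of Aqp1 and Srxn1 were lower in Zeb1 MSKO among Lalba-0 progenitors too, which held 4.22 and 1.47 CPM of Aqp1 and 25.8 and 22.9 CPM of Srxn1 in Zeb1 MSKO, and 9.19 and 27.0 CPM and 64.4 and 53.7 CPM in control.

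**Figure D5:**
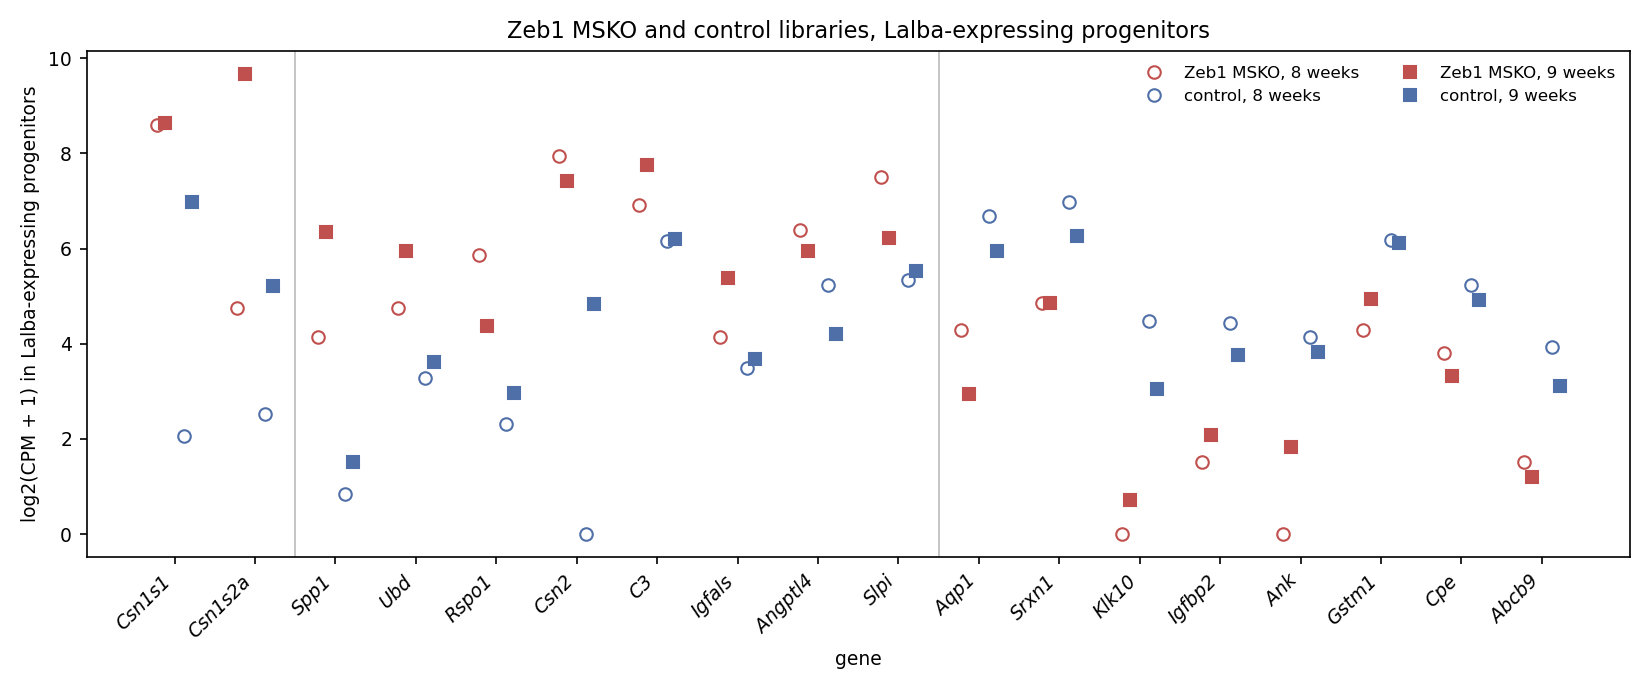
Levels in Lalba-expressing progenitors, as log2(CPM + 1) on the y axis, of 2 caseins (left), the 8 genes with higher (middle) and the 8 with lower values in Zeb1 MSKO (right) of lowest unadjusted p (x axis). Points are libraries, red for Zeb1 MSKO and blue for control, open circles for 8 weeks and filled squares for 9 weeks. The genotypes do not overlap in the middle and right groups, which were chosen for that order, and no gene passed the test without a block.

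Whether the genotype difference itself was unlike that of Lalba-0 progenitors was tested as the interaction of genotype and Lalba state, with the library as a block. Of 11992 genes, 20 passed (0.167%), 6 with a more positive and 14 with a more negative genotype difference in members. With each gene's highest cell left out 8 passed, 7 of them among the 20, and DESeq2 called 1. With 1 library left out, 11 and 51 passed where it was the 8-week or the 9-week Zeb1 MSKO library, and 9 and 20 where it was the 8-week or the 9-week control library. Csn1s2a had the lowest p and the most positive value (2.91 ± 0.26 on the log2 scale, SE; edgeR adjusted p = 1.0e-20), and this rested on Zeb1 MSKO at 9 weeks, without which it was 0.67 (adjusted p = 0.86). Marco, Ccl7, Il17b, Igfbp2 and Serpinf1 had larger differences of the other sign, from -10.7 to -3.13. None of them was called with each gene's highest cell left out. In control members at 8 weeks 1 cell held 87 of the 92 Ccl7 UMIs. The difference of Marco is no measure of size, as its level in members was 0 in each library but the 8-week control library (62.5 CPM). Csn1s1 differed by 1.23 ± 0.21 (SE; adjusted p = 1.6e-05) and was no longer called without the 8-week Zeb1 MSKO library (0.74, adjusted p = 0.17) or the 9-week control library (2.42, adjusted p = 0.23). Lipa differed by 0.84 ± 0.18 (SE; adjusted p = 0.00515). Its level was higher in Zeb1 MSKO than in control among members at both ages and lower among Lalba-0 progenitors at both ages, and the call was lost without the 8-week Zeb1 MSKO library (0.64, adjusted p = 0.24) or the 9-week control library (0.55, adjusted p = 1.0).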

How the data were processed

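All 4 libraries share 1 deposited table of 27998 genes and 36884 barcodes. Its values are unnormalised UMI counts, for which the submitters' processing notes name Cell Ranger 2.1.0 and mm10. The labels do not say whether depth was equalised between libraries. The barcode suffix names the library, per the labels. No filter on barcodes was applied in the main analysis. The alternative kept barcodes with at least 500 genes and at most 10% mitochondrial UMIs and removed doublets, called by neighbours of simulated doublets at an assumed rate of 8% (3.76% to 7.20% called per library).

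UMI counts were summed per library and Lalba state. edgeR 4.0.16 (TMM, default filter on low counts, quasi-likelihood test, Benjamini-Hochberg threshold 0.05) was the main tool, and DESeq2 1.42.0 an alternative. Both were run in R 4.3.3, and the edgeR steps were tested on simulated data. The 30 rule genes stayed in the fits but were left out of the counts of calls and given without a test. Shares of barcodes were compared by an exact permutation test over libraries and have exact (Clopper-Pearson) 95% intervals.

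The members, gene lists and rules were chosen with earlier results of these data known. Named genes were, between Lalba states, the 12 highest and 8 lowest log2 fold changes among called genes with 1 direction in 4 of 4 libraries and at least 10 CPM in the higher state. Between genotypes they were the 8 higher and 8 lower genes of lowest unadjusted p with 1 direction at both ages. Any member of the 21 lists could be named too. Genes outside the rules that are named were chosen after their values were seen. The age of a library comes from its label. The 9 to 8 week log2 ratios of Zeb1 MSKO and control members correlated across 6870 genes (Pearson r 0.38; genes are not replicates), so the genotype comparison was also fitted with an age term. Gene coordinates are from GENCODE vM21, and promoter sequences from RefSeq (GRCm38.p6), which held windows for 221 of the genes that rose.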

Additional observations from a re-analysis of the deposited data

Results flagged for a closer look

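The genotype difference was unlike between Lalba-expressing and Lalba-0 progenitors for 20 genes, by the interaction test of edgeR. Of those covered by a gene list or by the rule for named genes, Csn1s2a had the most positive value, 2.91 on the log2 scale. Its level was 25.9 and 815 CPM in Zeb1 MSKO members at 8 and 9 weeks and 4.75 and 35.9 CPM in control members, against 3.68 and 18.6 CPM in Lalba-0 progenitors of Zeb1 MSKO and 1.78 and 7.44 CPM in those of control. Csn1s1 had 1.23 and Lipa 0.84. Igfbp2, an insulin-like growth factor binding protein, had -3.57, and -0.76 (adjusted p = 1.0) with each gene's highest cell left out. Dcn, the matrix proteoglycan decorin and a fibroblast marker, had -1.84. In the control members at 8 weeks 85 of its 102 UMIs lay in 1 cell, and without each gene's highest cell the value was 0.12 (adjusted p = 1.0).

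Csn1s2a, Csn1s1 and Lipa remained called with each gene's highest cell left out, and none of the 5 was called with DESeq2.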

How the results depend on the processing

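The comparison of Lalba states rests on pairing both sums of a library. Without the replicate block it called 0 genes, with 311 at an unadjusted edgeR p under 0.05, against 466 called with the block. DESeq2 called 254, and thinning, which also chose both states anew, 113. Leaving out 1 library gave 285 to 464, and the other alternatives 410 to 628.

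Between genotypes in members, against 0 genes, DESeq2 called 2, no filter on low counts 44, thinning 1, at least 5 Lalba UMIs 1, the replicate block (age) 30, and leaving out 1 library 0 to 29. For the difference between states, against 20 genes, DESeq2 called 1, the cell filters 8, thinning 1 and leaving out each gene's highest cell 8. Leaving out 1 library gave 9 to 51, and the age block 19. The share of members differed between genotypes by -3.09 points, and by -8.60 to 2.41 points with 1 library left out (0.50 without Zeb1 MSKO replicate 1), since that unbalances the ages. It was -1.18 and -5.01 within ages as replicate blocks.

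Signs turned for few genes between Lalba states: Igfbp2 (-0.29) and the uncalled Cldn5 (-3.05, adjusted p = 0.0068) without each gene's highest cell, Socs3 (-0.042) when thinned, and S100a8 with DESeq2 (0.12) and when 1 library was left out (-1.56 to 0.77, the highest without control replicate 1). Dcn turned to 0.12 in the difference between states. The cause was not tested. The alternative without each gene's highest cell was chosen after seeing the data. The 47 members of Zeb1 MSKO at 8 weeks set the lowest depth, and sparse genes such as Wap could not be compared.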
